A study of Populus ussuriensis with 12 samples.

Results

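Chalcone synthase is the enzyme at the entry of the flavonoid pathway, and the genes described here are the 6 loci of *Populus trichocarpa* on chromosomes 1, 3 and 14 that were listed by ID as its chalcone synthase family. Values were found for 4 of the 6 among 39602 gene rows, and all 4 passed the low-count filter that left 25871 genes for testing. Potri.001G051600.v3.0 and Potri.003G176900.v3.0 were not analysed here. The counts came from root messenger RNA of *Populus ussuriensis*, a northeast Asian poplar, taken from in vitro plants aged 21 days. Plants of the wild type (WT) and plants that overexpress PuHSFA4a (OE), a class A heat shock transcription factor, were each grown on control medium and under excess Zn. Each of these 4 groups (WT control, OE control, WT Zn, OE Zn) held 3 libraries. The labels' protocol gives 1 week of growth and then 2 weeks with 1.2 mM zinc sulfate, a text that stands with every sample and is taken here to concern the Zn groups alone. The labels give neither the promoter of the transgene, nor the number of lines, nor the plants behind each library of a group, so the p-values speak for the spread of these libraries alone, which may be technical.

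Chalcone synthase is a type III polyketide synthase. It joins a coumaroyl-CoA from the phenylpropanoid pathway with malonyl-CoA units to give a chalcone, which later enzymes turn into flavonols, anthocyanins and proanthocyanidins. Proanthocyanidins, or condensed tannins, are abundant phenolics of poplar roots and leaves. In many plants the enzyme is encoded by several closely related genes, some of them side by side on a chromosome, and its transcript level is under strong control by light, stress and MYB-type regulators.

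The library totals ran from 15594001 to 21206585 counts. Levels are given as CPM, counts per 1000000 counts of a library scaled by TMM (trimmed mean of M-values), and levels compared between genes are CPM per kilobase of the deposited gene length. The locus Potri.011G071700.v3.0 was taken as HSFA4a from general knowledge and not from the files. It stood at 239 to 347 CPM in the 6 OE libraries and at 32.5 to 33.1 CPM in WT Zn. For OE against WT on control medium its log2 fold change was 1.62 (edgeR adjusted p = 0.395). On Zn medium it was 2.97 (edgeR adjusted p = 0.0575), so edgeR called this locus in neither medium. In the libraries labelled WT control 1, 2 and 3 it stood at 129, 165 and 37.1 CPM, so at this locus libraries 1 and 2 lay partly towards OE, against their label. The comparisons with WT control were therefore repeated in edgeR alone without those 2 libraries, and beside each comparison the calls that this changed are named. The files carry no gene names, so the root label could not be checked against marker genes. RNA of whole roots was measured, so fewer cells of a type and less RNA per cell cannot be told apart.

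The 4 rows lie at 3 places. Potri.014G145100.v3.0 spans chromosome 14, 11073134 to 11075291, on the minus strand, and Potri.001G051500.v3.0 spans chromosome 1, 3907994 to 3918380, also on the minus strand. Potri.003G176700.v3.0 (chromosome 3, 18507178 to 18509547) and Potri.003G176800.v3.0 (chromosome 3, 18514135 to 18522933) lie in tandem on the plus strand with 4587 bases between them. Coordinates are those of the deposited files, whose genome build is not given in the sources used here. No other row overlaps any of the 4.

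Their lengths are alike, 1705, 1757, 1575 and 1643 bases in the order just given, but their spans are not. Potri.014G145100.v3.0 and Potri.003G176700.v3.0 span 1.27 and 1.505 times their length. Potri.001G051500.v3.0 and Potri.003G176800.v3.0 span 10387 and 8799 bases, which is 5.91 and 5.36 times their length. In both wide rows the next ID number is that of the family member not analysed here. Over the numbered chromosomes, 21.9% of the 1603 rows whose next ID number no row carries spanned more than 5 times their length, against 3.41% of the 36056 other rows. Whether the wide rows also hold reads of the neighbouring copy was not tested. How reads that match several copies were counted is not given either, so the split of counts between these near copies is uncertain.

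Potri.014G145100.v3.0 was the most abundant chalcone synthase row of these roots. Per kilobase, it stood first in the family in 12 of 12 libraries, Potri.001G051500.v3.0 came next, Potri.003G176800.v3.0 after it and Potri.003G176700.v3.0 last. The level of Potri.014G145100.v3.0 ran from 178.6 to 343 CPM per kilobase, which placed it between rank 131 and rank 382 of all 39602 rows. Potri.001G051500.v3.0 ran from 60.1 to 172.6 CPM per kilobase and Potri.003G176800.v3.0 from 29.5 to 70.0. Potri.014G145100.v3.0 thus lay above Potri.001G051500.v3.0 in every pairing of libraries, while the latter and Potri.003G176800.v3.0 overlapped between libraries but not within one. Potri.003G176700.v3.0 stood at 0.579 to 9.11 CPM per kilobase, between rank 11605 and rank 24062.

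Of the counts of the 4 rows, Potri.014G145100.v3.0 took 57.5% to 65.9%, Potri.001G051500.v3.0 21.1% to 30.8%, Potri.003G176800.v3.0 7.32% to 11.7% and Potri.003G176700.v3.0 0.128% to 1.71%. The library WT Zn 3 was at the edge for both leading rows, with the lowest share of Potri.001G051500.v3.0 and the highest of Potri.014G145100.v3.0. The CPM of Potri.001G051500.v3.0 was 0.472 ± 0.034 of that of Potri.014G145100.v3.0 in WT control, 0.509 ± 0.014 in OE control, 0.417 ± 0.088 in WT Zn and 0.484 ± 0.044 in OE Zn (SD, n = 3). These ratios overlapped between groups, except that the lowest of OE control, 0.493, lay just above the highest of WT Zn, 0.491. The CPM of Potri.003G176800.v3.0 was 0.145 ± 0.030 of that of Potri.014G145100.v3.0 in WT control and 0.185 ± 0.016, 0.179 ± 0.019 and 0.177 ± 0.016 in OE control, WT Zn and OE Zn (SD, n = 3).

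**Figure D1:**
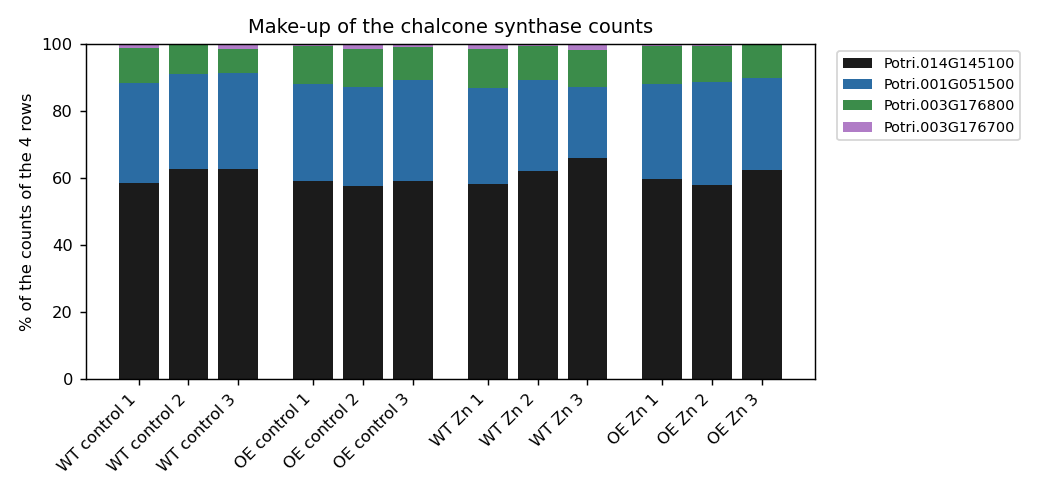
Percentage of the counts of the 4 chalcone synthase rows taken by each row, stacked for each of the 12 libraries. Potri.014G145100 takes 57.5% to 65.9% in every library, and Potri.003G176700 at most 1.71%.

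Excess Zn went with less RNA of the leading chalcone synthase rows in both genotypes: Potri.014G145100.v3.0 and Potri.001G051500.v3.0 fell in WT and in OE, and Potri.003G176800.v3.0 fell in OE. Summed over the 4 rows, the family stood at 732 CPM ± 16.1 in WT control, 961 CPM ± 48.8 in OE control, 537 CPM ± 31.1 in WT Zn and 563 CPM ± 63.6 in OE Zn (SD, n = 3). OE control was thus the highest group, WT control came next, and the Zn groups lay lowest and overlapped each other. The sum is a description with no test.

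**Figure D2:**
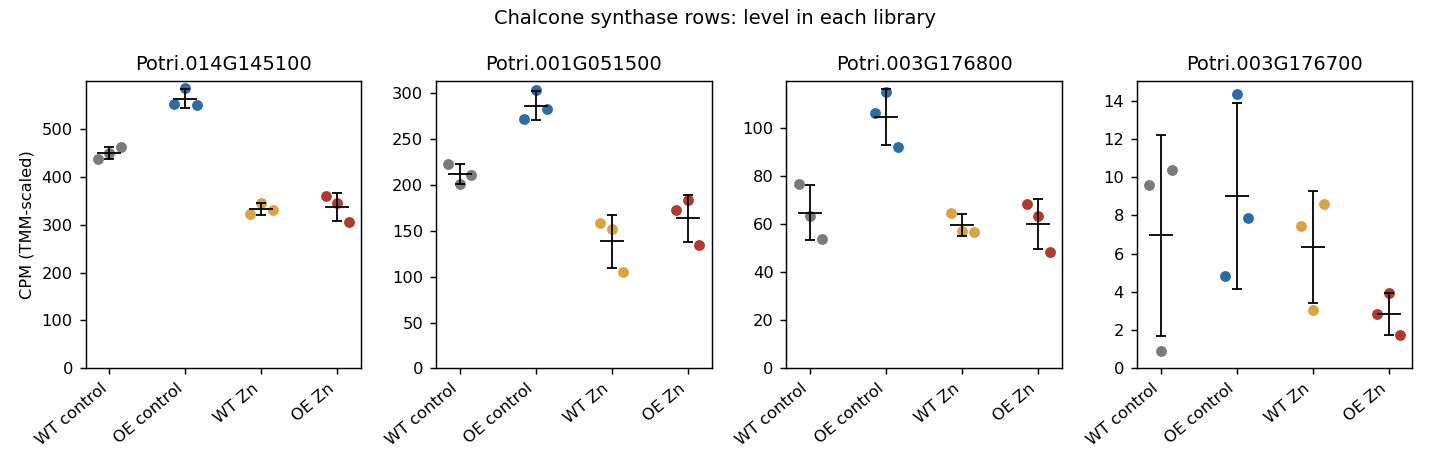
CPM (TMM-scaled, axis from 0) of each chalcone synthase row in the 12 libraries, with dots for libraries and bars for group mean ± SD of 3 libraries. In the 3 more abundant rows OE control stands highest, with 549 CPM as its lowest value for Potri.014G145100 against 461 CPM as the highest of WT control.

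The first comparison asks how excess Zn changed the family in WT roots. Potri.014G145100.v3.0 stood at 436, 448 and 461 CPM in the libraries of WT control and at 322, 345 and 330 CPM in WT Zn. All 3 Zn libraries lay below all 3 control libraries. It fell by 0.43 on the log2 scale (SE 0.07, edgeR quasi-likelihood adjusted p = 0.00107), to a fold of 0.742 of its control level. Potri.001G051500.v3.0 stood at 223, 201 and 210 CPM in WT control and at 158, 152 and 106 CPM in WT Zn. Again no Zn library reached the lowest control library, and the library WT Zn 3 lay furthest down. Its log2 fold change was -0.61 (SE 0.14; adjusted p = 0.00789 by edgeR).

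The chromosome 3 pair did not pass in WT. Potri.003G176800.v3.0 stood at 76.7, 63.4 and 53.9 CPM in WT control and at 64.7, 57.1 and 56.5 CPM in WT Zn. These ranges overlapped, with a log2 fold change of -0.12 and a 95% interval of -0.44 to 0.20 (edgeR adjusted p = 0.569). Potri.003G176700.v3.0 stood at 9.59, 0.912 and 10.4 CPM in WT control and at 7.47, 3.05 and 8.57 CPM in WT Zn. The library WT control 2, with 18 counts of this row, lay far below the other 2 of its group. The log2 fold change was -0.12, with an interval of -1.65 to 1.42 (edgeR adjusted p = 0.919) that leaves room for a change of more than 2-fold either way.

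In WT, 2 of the 4 rows were thus called lower on Zn and 0 higher, where 14.5% of all genes tested were called lower and 15.3% higher, 29.9% in all. The same 2 rows had an unadjusted p under 0.05, as had 41.4% of all genes, and DESeq2 also called them, where it called 31.9%. Both lay wholly below WT control, as did 21.9% of all genes tested, and 0 rows lay wholly above it, as did 22.6%. The median log2 fold change of the 4 rows was -0.28 and that of all genes 0.01. Without the libraries labelled WT control 1 and 2, Potri.001G051500.v3.0 kept a log2 fold change of -0.61 but no longer passed in edgeR. WT control is then a single library, whose spread is taken from the other groups.

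In OE roots 3 of the 4 rows fell on Zn, and all 4 lay below their control levels. Potri.014G145100.v3.0 stood at 552, 585 and 549 CPM in OE control and at 359, 345 and 305 CPM in OE Zn. The Zn libraries lay far below the control libraries, with a log2 fold change of -0.74 (SE 0.07; adjusted p = 0.000131 by edgeR). That is 0.599 of the control level. Potri.001G051500.v3.0 stood at 272, 303 and 283 CPM in OE control and at 172, 183 and 135 CPM in OE Zn, a log2 fold change of -0.81 (SE 0.14; adjusted p = 0.00366 by edgeR). The library OE Zn 3 was the lowest of its group in each of the 4 rows.

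Both chromosome 3 rows lay below their control libraries on Zn in OE. Potri.003G176800.v3.0 stood at 106, 115 and 92.0 CPM in OE control and at 68.3, 63.2 and 48.4 CPM in OE Zn. It fell by 0.80 on the log2 scale (SE 0.15; adjusted p = 0.00426 by edgeR), without overlap between the groups. Potri.003G176700.v3.0 stood at 4.86, 14.4 and 7.87 CPM in OE control and at 2.83, 3.94 and 1.75 CPM in OE Zn. Its groups did not overlap either, but its log2 fold change of -1.66 had an SE of 0.74 and did not pass (edgeR adjusted p = 0.150). In a fit of the 2 OE groups alone it passed (edgeR adjusted p = 0.0443), as it did when the library WT control 2 was left out of the shared fit (edgeR adjusted p = 0.0405).

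Of the 4 rows, 3 were called lower on Zn in OE and 0 higher, where 8.54% of all genes tested were called lower and 8.52% higher, 17.1% in all. All 4 had an unadjusted p under 0.05, as had 31.6% of all genes, and DESeq2 called the same 3 as edgeR, where it called 20.1%. All 4 rows lay wholly below OE control, as did 18.1% of all genes tested, and 0 wholly above, as did 18.7%. The median log2 fold change of the 4 rows was -0.80, against 0.00 for all genes. None of the called changes reached an absolute log2 fold change of 1, in either genotype.

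**Figure D3:**
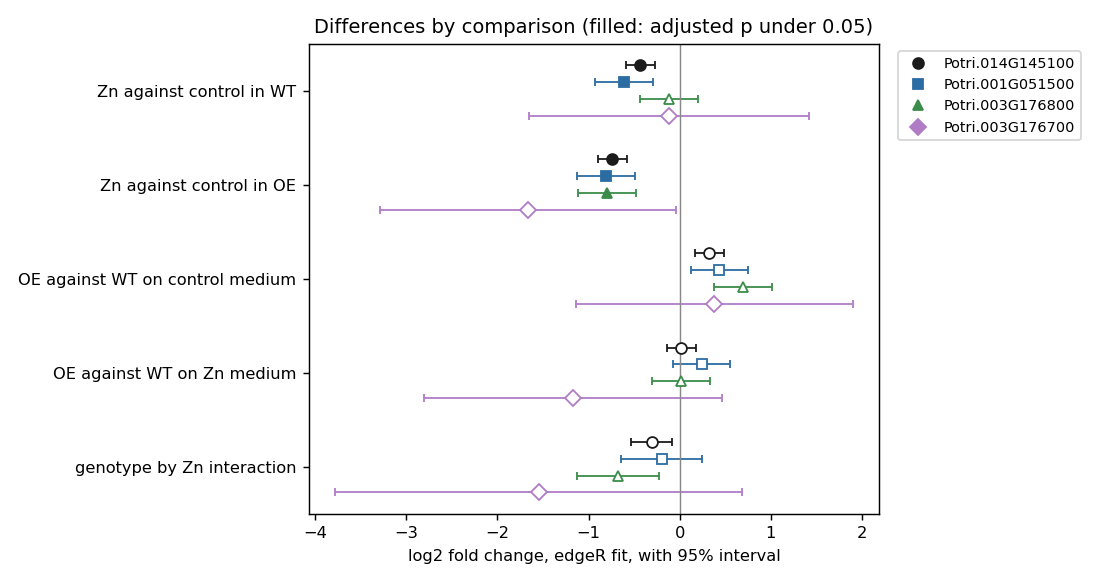
Log2 fold change of each chalcone synthase row in the 4 comparisons between groups and in the interaction, from the edgeR fit of 12 libraries, with 95% intervals. Filled symbols mark an adjusted p under 0.05: Potri.014G145100 and Potri.001G051500 are filled for Zn in both genotypes, and Potri.003G176800 for Zn in OE.

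The comparison of genotypes without added Zn sets the libraries labelled OE control against those labelled WT control. The number of lines is not given, so a difference between lines cannot be told apart from the transgene. The 3 more abundant rows lay higher in OE control, with every OE library above every WT library. For Potri.014G145100.v3.0 the lowest OE control library stood at 549 CPM and the highest WT control library at 461 CPM, a log2 fold change of 0.33 (95% interval 0.17 to 0.48). For Potri.001G051500.v3.0 these libraries stood at 272 and 223 CPM, a log2 fold change of 0.44 (0.12 to 0.75). For Potri.003G176800.v3.0 they stood at 92.0 and 76.7 CPM, a log2 fold change of 0.69 (0.37 to 1.01). Potri.003G176700.v3.0 overlapped, with a log2 fold change of 0.38 (-1.14 to 1.90).

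None of these differences passed over all genes. The edgeR adjusted p was 0.327, 0.472, 0.308 and 0.907 for the 4 rows in the order just given, and 3 of the 4 had an unadjusted p under 0.05. The edgeR test called 0 of 4 rows and 0% of all genes, while 8.87% of all genes had an unadjusted p under 0.05. The 3 OE libraries lay above the 3 WT libraries in 7.43% of all genes tested and below them in 7.29%, against 3 and 0 of the 4 rows. Limma-voom called 0 of the 4 rows. DESeq2 called 2, Potri.014G145100.v3.0 (adjusted p = 0.00520) and Potri.003G176800.v3.0 (adjusted p = 0.00838), where it called 0.313% of all genes in either direction.

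The libraries WT control 1 and 2 did not lie towards OE at every chalcone synthase row. For Potri.014G145100.v3.0 they stood at 436 and 448 CPM, further from OE than WT control 3 at 461 CPM, and for Potri.001G051500.v3.0 at 223 and 201 CPM, on either side of 210 CPM in WT control 3. For Potri.003G176800.v3.0 both, at 76.7 and 63.4 CPM, lay nearer to OE than WT control 3 at 53.9 CPM. Without WT control 1 and 2, the log2 fold changes of OE against WT were 0.29 for Potri.014G145100.v3.0, 0.45 for Potri.001G051500.v3.0 and 0.96 for Potri.003G176800.v3.0. The edgeR fit of all libraries had called none of these rows, so this repeat could not remove a call. DESeq2, which had called Potri.014G145100.v3.0 and Potri.003G176800.v3.0, was not repeated without these libraries.

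On Zn medium the genotypes overlapped in every row. Potri.014G145100.v3.0 stood at 322 to 345 CPM in WT Zn and at 305 to 359 CPM in OE Zn, a log2 fold change of 0.02 with a 95% interval of -0.14 to 0.17 (edgeR adjusted p = 0.972). Potri.003G176800.v3.0 stood at 56.5 to 64.7 CPM and 48.4 to 68.3 CPM, a log2 fold change of 0.01 (-0.31 to 0.33; edgeR adjusted p = 0.991). Potri.003G176700.v3.0 was at -1.17 (-2.81 to 0.47; edgeR adjusted p = 0.751). Potri.001G051500.v3.0 was at 0.24 (-0.08 to 0.55; edgeR adjusted p = 0.735), a value that ran from 0.08 without WT Zn 3 to 0.36 without OE Zn 3. Of all genes tested, 6.08% lay wholly above WT Zn in OE Zn and 6.73% wholly below, against 0 of the 4 rows. No row had an unadjusted p under 0.05, against 7.13% of all genes, and edgeR, DESeq2 and limma-voom called 0 of the 4. Over all genes, edgeR called 0% here and DESeq2 0.247%.

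The interaction asks whether the Zn response differed between the genotypes, and it did not pass for any row. All 4 estimates were negative (a more negative Zn response in OE), as were those of 51.5% of all genes. The interaction log2 value was -0.68 for Potri.003G176800.v3.0 (SE 0.21, unadjusted p = 0.00677, edgeR adjusted p = 0.779). It was -0.31 for Potri.014G145100.v3.0 (SE 0.10, unadjusted p = 0.0103, edgeR adjusted p = 0.779) and -0.20 for Potri.001G051500.v3.0 (SE 0.20; adjusted p = 0.870 by edgeR). The last value ran from -0.36 without WT Zn 3 to -0.08 without OE Zn 3. Potri.003G176700.v3.0 was at -1.55 with an SE of 1.01 (edgeR adjusted p = 0.794). Without WT control 1 and 2 the interaction log2 values were -0.94 for Potri.003G176800.v3.0, -0.21 for Potri.001G051500.v3.0 and -0.97 for Potri.003G176700.v3.0. That of Potri.014G145100.v3.0 stayed between -0.36 and -0.24 over all alternative settings. An unadjusted p under 0.05 was found for 2 of the 4 rows and for 6.29% of all genes. The edgeR test called 0% of all genes and 0 of the 4 rows, and DESeq2, which called 0.0193% of all genes, and limma-voom also called 0 of the 4. A larger response of Potri.003G176800.v3.0 in OE is therefore not shown, although it passed the Zn test in OE and not in WT.

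Of the 6 rows nearest to the family, 3 were called lower and 2 higher on Zn in WT, where 29.9% of all genes were called, and 0 lower and 2 higher in OE, where 17.1% were (edgeR adjusted p under 0.05). Without WT control 1 and 2, which leaves WT control a single library, Potri.001G051400.v3.0 and Potri.014G145200.v3.0 no longer passed in WT, nor Potri.001G051700.v3.0 in OE. Beside Potri.014G145100.v3.0, the row before it, Potri.014G145000.v3.0, had log2 fold changes on Zn of 0.29 in WT and 0.26 in OE, and the row after it, Potri.014G145200.v3.0, -0.24 and -0.21. Beside Potri.001G051500.v3.0, Potri.001G051400.v3.0 had -0.32 and -0.22 and Potri.001G051700.v3.0 0.16 and 0.25. Around the chromosome 3 pair, Potri.003G176600.v3.0 rose in both genotypes, by 0.42 in WT and 0.36 in OE (edgeR adjusted p = 0.00404 and 0.0171). Potri.003G177000.v3.0 fell in WT by 0.47 (edgeR adjusted p = 0.000803) and had -0.02 in OE. For OE against WT on control medium the 6 neighbouring rows lay between -0.13 and 0.10 on the log2 scale, or -0.24 and 0.26 without WT control 1 and 2, and none passed in edgeR either way.

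Across the 12 libraries the 3 more abundant rows moved together. The Pearson r of log2(CPM + 0.5) was 0.92 between Potri.014G145100.v3.0 and Potri.001G051500.v3.0, 0.82 between Potri.014G145100.v3.0 and Potri.003G176800.v3.0, and 0.83 between the other two. Potri.003G176700.v3.0 had 0.33 to 0.44 with them. As deviations from the group means, the 3 abundant rows had r of 0.40 to 0.56 with each other, and Potri.003G176700.v3.0 0.16 to 0.22 with them. These values describe 12 libraries that fall into 4 groups and share their scaling. The part of reads that match several copies in these r was not tested.

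Over 18707 other genes averaging 5 CPM or more, 5 outside the family were most like Potri.014G145100.v3.0 on this measure. They were Potri.008G116500.v3.0 (r = 0.963), Potri.004G184200.v3.0 (0.961), Potri.001G140700.v3.0 (0.957), Potri.002G003800.v3.0 (0.954) and Potri.012G131500.v3.0 (0.953). The family rows themselves came at rank 31 for Potri.001G051500.v3.0, rank 591 for Potri.003G176800.v3.0 and rank 6054 for Potri.003G176700.v3.0. The share of genes with r above 0.9 was 0.438%, and the median r was 0.03. As deviations from the group means, r was 0.54, 0.60, 0.52, -0.07 and 0.68 for the 5 genes in the order given, so Potri.002G003800.v3.0 was alike between groups but not within them. All 5 fell on Zn in both genotypes, with log2 fold changes of -0.32 to -0.83 in WT and -0.68 to -1.04 in OE, and each passed in edgeR. Without WT control 1 and 2, Potri.012G131500.v3.0 did not pass in WT (log2 fold change -0.44, edgeR adjusted p = 0.0521). The genes were picked for this likeness, so their Zn response is a description.

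A list of 16 other loci was drawn up for the flavonoid steps after chalcone synthase, from general knowledge of the *P. trichocarpa* IDs. It was chosen with earlier results of these data known, so its counts beside those of all genes are a description. Nothing in the files ties these IDs to enzymes, so no single enzyme is assigned to a locus, and the list is only as good as that knowledge. Of the 16, 2 were not analysed here, 1 was under the low-count filter and 13 were tested. On Zn in WT, 6 of the 13 were called lower, 1 higher and 6 not, where 14.5% and 15.3% of all genes were called lower and higher, with a median log2 fold change of -0.45 against 0.01 for all genes. On Zn in OE, 7 were called lower, 0 higher and 6 not, where 8.54% and 8.52% of all genes were, with a median of -0.51 against 0.00. For OE against WT, edgeR called 0 of the 13 in either medium. On control medium 12 of the 13 had a positive log2 fold change, as had 49.3% of all genes, with a median of 0.24. Without WT control 1 and 2, which leaves WT control a single library, it was 10 of the 13, with a median of 0.30. The median on Zn in WT was then -0.42. For OE against WT on Zn medium 9 of the 13 had a positive log2 fold change, as had 49.5% of all genes, with a median of 0.11.

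Of the listed loci, 9 passed in at least 1 comparison, always on Zn, where edgeR called 29.9% of all genes in WT and 17.1% in OE. Among these 9, Potri.015G050200.v3.0 fell most, from 37.4 CPM ± 3.56 to 15.7 CPM ± 4.60 in WT and from 45.8 CPM ± 5.07 to 19.3 CPM ± 1.23 in OE (SD, n = 3). Its log2 fold change was -1.26 in WT and -1.24 in OE (edgeR adjusted p = 0.000473 and 0.00111). Potri.008G116500.v3.0, also the gene most like Potri.014G145100.v3.0, went from 68.7 CPM ± 4.84 to 38.7 CPM ± 5.07 in WT and from 88.0 CPM ± 11.6 to 42.7 CPM ± 4.31 in OE (SD, n = 3). Potri.002G033600.v3.0 went from 125 CPM ± 17.0 to 68.5 CPM ± 13.98 in WT and from 150 CPM ± 8.68 to 86.9 CPM ± 17.7 in OE (SD, n = 3). These 3 loci, Potri.010G213000.v3.0 and Potri.013G073300.v3.0 passed in both genotypes. The last pair had log2 fold changes of -0.37 and -0.51 in WT and -0.38 and -0.51 in OE.

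The other 4 loci passed in a single genotype, which does not show a difference between the genotypes. Potri.003G119100.v3.0 passed in WT (-0.47, edgeR adjusted p = 0.0478), with -0.49 in OE (edgeR adjusted p = 0.0615), but not in WT without WT control 1 and 2 (-0.52, edgeR adjusted p = 0.173). Potri.005G113700.v3.0 and Potri.005G229500.v3.0 passed in OE (-0.63 and -0.68, edgeR adjusted p = 0.00820 and 0.00925), with -0.35 and -0.28 in WT. Potri.013G118700.v3.0 was the one that rose in WT, from 9.54 CPM ± 3.24 to 21.4 CPM ± 6.42 (SD, n = 3; edgeR adjusted p = 0.00939). In OE it stood at 10.6 CPM ± 1.37 on control medium and 8.56 CPM ± 1.98 on Zn, and its interaction did not pass (edgeR adjusted p = 0.779).

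**Figure D4:**
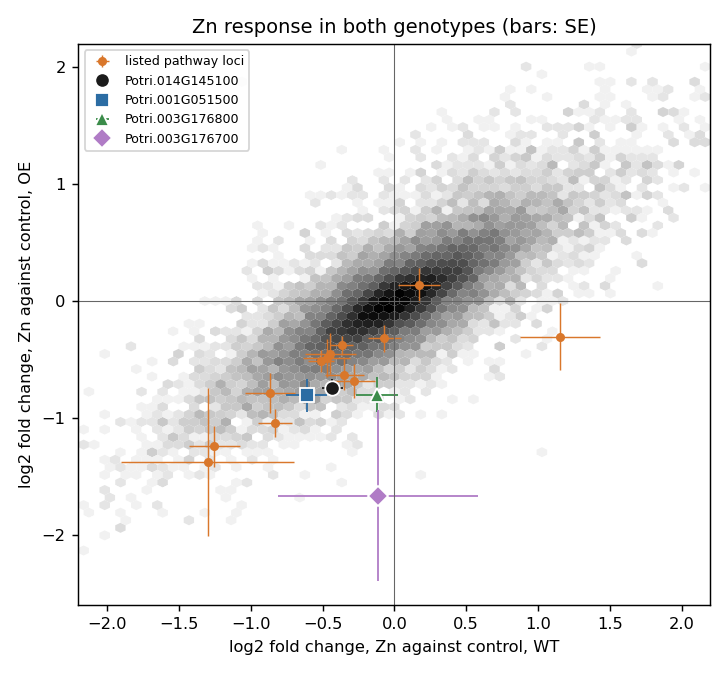
Log2 fold change on Zn in WT (x axis) and in OE (y axis) for the 4 chalcone synthase rows and the 13 listed loci, with SE bars, over the density of the tested genes within 2.2 log2 units of 0 on both axes (grey, log scale). The 3 abundant chalcone synthase rows lie between -0.12 and -0.61 in WT and between -0.74 and -0.81 in OE.

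Of the 12 listed loci above 5 CPM, 10 had r above 0.7 over the 12 libraries, where 12.1% of the 18707 genes did. Among these 10, Potri.001G113100.v3.0 (0.740), Potri.005G229500.v3.0 (0.783) and Potri.004G030700.v3.0 (0.795) did not reach 0.8, which 4.74% of the genes exceeded. As deviations from the group means, r was 0.118 to 0.621 for these 10, with the lowest value for Potri.015G050200.v3.0. The others were Potri.010G129800.v3.0 (r = -0.19) and Potri.013G118700.v3.0 (r = -0.32). The HSFA4a locus had r = 0.47 with Potri.014G145100.v3.0 over the libraries and -0.22 as deviations from the group means.

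**Figure D5:**
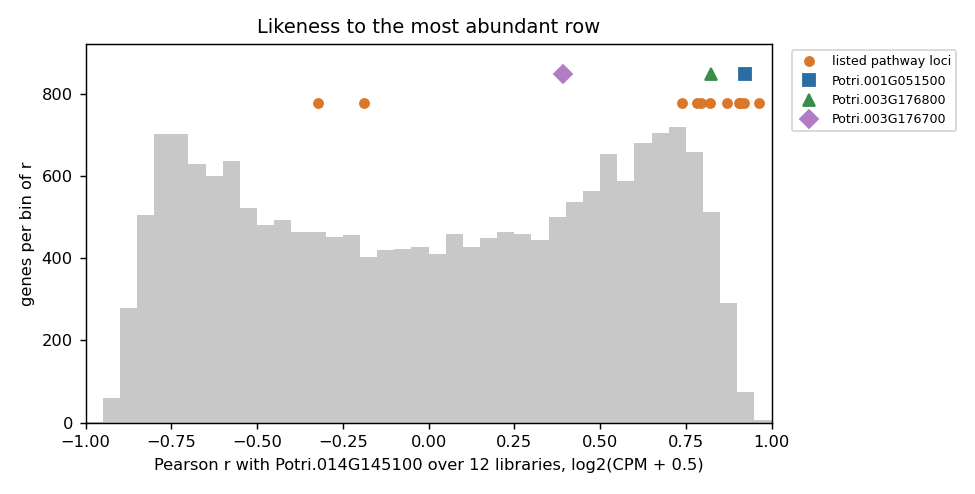
Number of genes (y axis) by Pearson r of log2(CPM + 0.5) with Potri.014G145100 over 12 libraries (x axis), for 18707 genes averaging 5 CPM or more. Symbols above the bars mark the r of the other chalcone synthase rows, 0.92, 0.82 and 0.39, and of 12 listed pathway loci, 10 of them above 0.7.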

How the data were processed

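Root mRNA libraries were prepared with a TruSeq kit, per the labels' protocols; the submitters' processing notes name TopHat2 2.1.1 and HTSeq 0.6.0. The deposited files give for each gene a whole-number count, treated as an estimated count of the authors because it does not match their normalized signal for every gene, and the authors' FPKM, which was not used for tests. The counts implied by the deposited normalized signal were an alternative. The sources used here give no strand setting, build or filter.

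Counts were tested in R 4.3.3 with edgeR 4.0.16 (robust quasi-likelihood F-test, filterByExpr, TMM, 12 libraries in 1 fit of 4 groups with 8 residual degrees of freedom), with Benjamini-Hochberg adjustment over 25871 genes and a threshold of 0.05. SEs were obtained from the fold change and its F value, and 95% intervals use the t quantile of the fit. DESeq2 1.42.0 and limma 3.58.1 were alternatives. The test was checked on simulated counts.

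Libraries were grouped by title; replicate numbers follow accession order and pair nothing. The members, lists and alternatives were chosen with earlier results of these data known. Named are the 4 members, listed loci that passed in a comparison (at most 3 per step), the 5 genes most like the most abundant member, the nearest rows on each side, added later, and listed loci singled out for their r. The planned lists built on gene descriptions, cell type markers included, were left empty for want of descriptions, so promoters, proteins and marker genes were not used here.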

Additional observations from a re-analysis of the deposited data

How the results depend on the processing

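The calls of lower chalcone synthase RNA on Zn held under DESeq2, limma-voom, the newer quasi-likelihood method, other scalings and filters, the 2-group fits and the implied counts: 2 rows in WT throughout, and 3 in OE, or 4 in the fit of the OE groups alone. With each library left out in turn the counts were 2 in WT and 3 to 4 in OE. A minimum absolute log2 fold change of 1 left 0 rows in either genotype, where it left 8.58% of all genes in WT and 5.31% in OE. The calls in WT did not all hold without WT control 1 and 2, which leaves WT control a single library. For OE against WT on control medium DESeq2 called 2 rows higher where edgeR called 0. For Potri.003G176700.v3.0 on Zn in WT the sign turned with limma-voom (0.44) and without WT control 3 and WT Zn 3 (0.013), with a range of -0.65 to 0.27 over single libraries left out; for OE against WT on control medium it turned without WT control 1 and 2 (-0.20), with a range of -0.14 to 0.77. For Potri.003G176800.v3.0 the sign turned on Zn in WT without WT control 1 and 2 (0.14; range -0.25 to 0.014), and for OE against WT on Zn with limma-voom (-0.0023) and without WT control 3 and WT Zn 3 (-0.024; range -0.091 to 0.14). For Potri.014G145100.v3.0 in the same comparison the range was -0.032 to 0.083. None of these values passed a test, and the cause was not tested. No paired analysis was possible because the labels give the libraries no shared replicate numbers. Potri.003G176700.v3.0 had 18 to 262 counts a library, the fewest of the 4 rows. The repeat without WT control 1 and 2 for genes outside the family was chosen after seeing the data.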
